A study of Mus musculus with 2 samples.

Results

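The suppressor of cytokine signalling (SOCS) family was followed as the 8 genes Socs1 to Socs7 and Cish, which are 8 of the 18049 genes listed in the expression tables. They were chosen by name as the members of this gene family, and all 8 were found in both libraries. The study sorted live MHCIIhi CD11c+ B220- cells, the phenotype of migratory dendritic cells (DCs), from lymph nodes of B6 mice and measured mRNA together with 12 DNA-barcoded antibodies in each cell (CITE-seq). The naive library came from unimmunized mice and the papain library from mice given ovalbumin (OVA) and the protease allergen papain in both rear footpads 1 day earlier. The nodes of immunized mice were popliteal, while the study's methods describe pooled skin-draining nodes as the naive control and the sample notes name popliteal nodes for both, so node site and immunization cannot be told apart. Each condition is 1 library of pooled cells, so no comparison below has a replicate or a test. Intervals cover counting error only, not the spread between cells or mice. Overlap or its absence below refers to these intervals alone.

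Levels are given as CPM: the unique molecular identifiers (UMIs) of a gene for every 1000000 UMIs of a group, after adding up its cells. Their 95% intervals are exact Poisson intervals. Groups are the authors' antibody classes: Langerhans cells (LCs), type 1 conventional DCs (cDC1s), and type 2 conventional DCs (cDC2s) split into CD301b-high, CD301b-int and CD301b-low by the antibody against the lectin CD301b. The naive library held 707 CD301b-high, 659 CD301b-int and 658 CD301b-low cDC2s, 440 LCs and 578 cDC1s. The papain library held 2893, 1827, 1470, 881 and 235 cells of these classes. Median depth per group was 10768 to 18290 UMIs a cell, and 2 cell barcodes occurred in both libraries. Epcam and Cd207, which mark LCs, summed to 148 CPM in naive and 215 CPM in papain LCs and to at most 38.3 CPM in any other class. The cDC1 genes Xcr1, Clec9a and Irf8 summed to 588 CPM in naive and 850 CPM in papain cDC1s. Their sums in LCs came next, at 374 and 531 CPM, of which Irf8 made up 373 and 530 CPM. The cDC2 genes Sirpa, Itgam and Irf4 summed to 127 to 169 CPM in cDC2 classes and to at most 83.7 CPM in LCs and cDC1s.

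Cytokine receptors without enzyme activity of their own signal through Janus kinases, which phosphorylate STAT transcription factors. SOCS proteins and CIS, the product of Cish, are feedback inhibitors of this pathway: many are transcribed when STATs are active, and each carries an SH2 domain that binds phosphorylated tyrosines and a SOCS box that recruits a ubiquitin ligase. SOCS1 and SOCS3 also block kinase activity directly, SOCS1 being known for restraining interferon signals and SOCS3 for restraining receptors that use gp130. CIS and SOCS2 are known as products of STAT5 signalling, for example after growth hormone or GM-CSF. SOCS4 to SOCS7 are less studied and have been linked in part to receptor tyrosine kinases.

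Promoters were at hand for 4 of the 8 members (Cish, Socs1, Socs3 and Socs4), as RefSeq windows on GRCm38.p6 that run from 250 bases before to 50 bases after an annotated start. The sequences of Cish, Socs3 and Socs1 are shown because these 3 windows hold letters that STAT or interferon-regulated factors are known to bind, given in capitals. In Cish and Socs3 the capitals mark TTCNNNGAA, the core letters of a STAT site, which reads the same on both strands. In Socs1 they mark GAAA followed by any 2 bases and GAAA again, the core letters of an interferon-stimulated element, searched on both strands.
Cish promoter, chr9:107296409-107296708, plus strand: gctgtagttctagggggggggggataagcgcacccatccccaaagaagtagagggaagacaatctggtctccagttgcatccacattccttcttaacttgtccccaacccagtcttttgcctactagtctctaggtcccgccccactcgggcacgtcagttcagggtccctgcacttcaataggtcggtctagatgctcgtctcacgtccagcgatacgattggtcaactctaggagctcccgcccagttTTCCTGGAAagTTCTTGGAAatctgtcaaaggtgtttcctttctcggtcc
Socs3 promoter, chr11:117969317-117969616, minus strand: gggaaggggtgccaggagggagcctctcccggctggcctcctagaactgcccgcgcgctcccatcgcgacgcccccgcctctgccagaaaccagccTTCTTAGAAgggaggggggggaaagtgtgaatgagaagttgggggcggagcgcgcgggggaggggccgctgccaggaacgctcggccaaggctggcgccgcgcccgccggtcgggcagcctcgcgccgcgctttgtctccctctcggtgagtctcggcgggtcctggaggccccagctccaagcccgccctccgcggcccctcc
Socs1 promoter, chr16:10785487-10785786, minus strand: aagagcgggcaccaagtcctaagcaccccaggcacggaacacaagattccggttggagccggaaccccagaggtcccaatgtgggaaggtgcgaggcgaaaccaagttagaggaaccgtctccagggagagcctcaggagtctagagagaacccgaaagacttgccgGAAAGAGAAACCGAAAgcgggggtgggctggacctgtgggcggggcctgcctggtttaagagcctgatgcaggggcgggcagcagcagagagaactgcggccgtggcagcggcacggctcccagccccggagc

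The Cish window held 2 copies of TTCNNNGAA, starting at bases 1 and 12 after the annotated start, and the Socs3 window held 1 copy, 154 bases before a start that lies inside the annotated gene span. The Socs1 window held 2 overlapping copies of the spaced GAAA pair, starting 83 and 77 bases before the start. The Socs4 window held neither motif. TTCNNNGAA occurred in 8.30% of 32851 promoter windows of this length and occurred 2 or more times in 0.457%. The spaced GAAA pair occurred in 3.44% and occurred 2 or more times in 0.225%. A match describes the letters only and shows no binding.

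Socs2 was higher in the papain library in all 5 classes. It had 631 CPM (616 to 645) in naive and 897 CPM (889 to 905) in papain CD301b-high cDC2s. It had 575 CPM and 899 CPM in CD301b-int, and 414 CPM and 866 CPM in CD301b-low cDC2s. LCs had 284 CPM (269 to 298) in the naive and 602 CPM (591 to 613) in the papain library, and cDC1s had 493 CPM and 822 CPM. No interval of a papain class overlapped that of the same class in the naive library, and the lowest papain level, in LCs, was below the naive level of CD301b-high cDC2s.

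The naive classes were spread in Socs2 and the papain cDC2s were close together. In the naive library the order was CD301b-high, CD301b-int, cDC1, CD301b-low and LC, with no overlap between neighbours. With papain, CD301b-high and CD301b-int cDC2s could not be separated, CD301b-low cDC2s and cDC1s came next, and LCs remained lowest. The log2 ratio of papain over naive was 0.51 (0.47 to 0.54) in CD301b-high, 0.65 (0.60 to 0.69) in CD301b-int, 1.06 (1.01 to 1.12) in CD301b-low cDC2s, 1.09 (1.01 to 1.16) in LCs and 0.74 (0.67 to 0.81) in cDC1s. The naive classes with the least Socs2 thus had the largest ratios.

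Socs2 was read in most DCs. After thinning each cell to 8392 UMIs, which left out the shallower cells, 91.5% of naive CD301b-high cDC2s, 76.5% of naive CD301b-low cDC2s and 71.7% of naive LCs held a UMI of Socs2 (94.3%, 79.6% and 71.6% before thinning). The thinned share with papain was 99.2% in CD301b-high, 96.9% in CD301b-low cDC2s and 93.0% in LCs (99.5%, 97.5% and 91.8% before thinning). In droplets without antibody data that held a UMI of the T cell genes Cd3e or Trac, 11.0% of naive and 9.54% of papain droplets had a Socs2 UMI, at median depths of 7626 and 6980 UMIs. After the same thinning the shares were 22.9% of 86 naive and 10.5% of 63 papain droplets. The shares in DCs were far above that level.

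The difference lay across the whole range of cells. Within naive CD301b-low cDC2s the cell at the 25th percentile had 96.5 CPM of Socs2, the median cell 339 CPM and the cell at the 75th percentile 650.1 CPM. The same 3 points in papain CD301b-low cDC2s were 489, 811 and 1190 CPM. In LCs the median cell had 170.1 CPM in the naive and 492 CPM in the papain library.

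**Figure D1:**
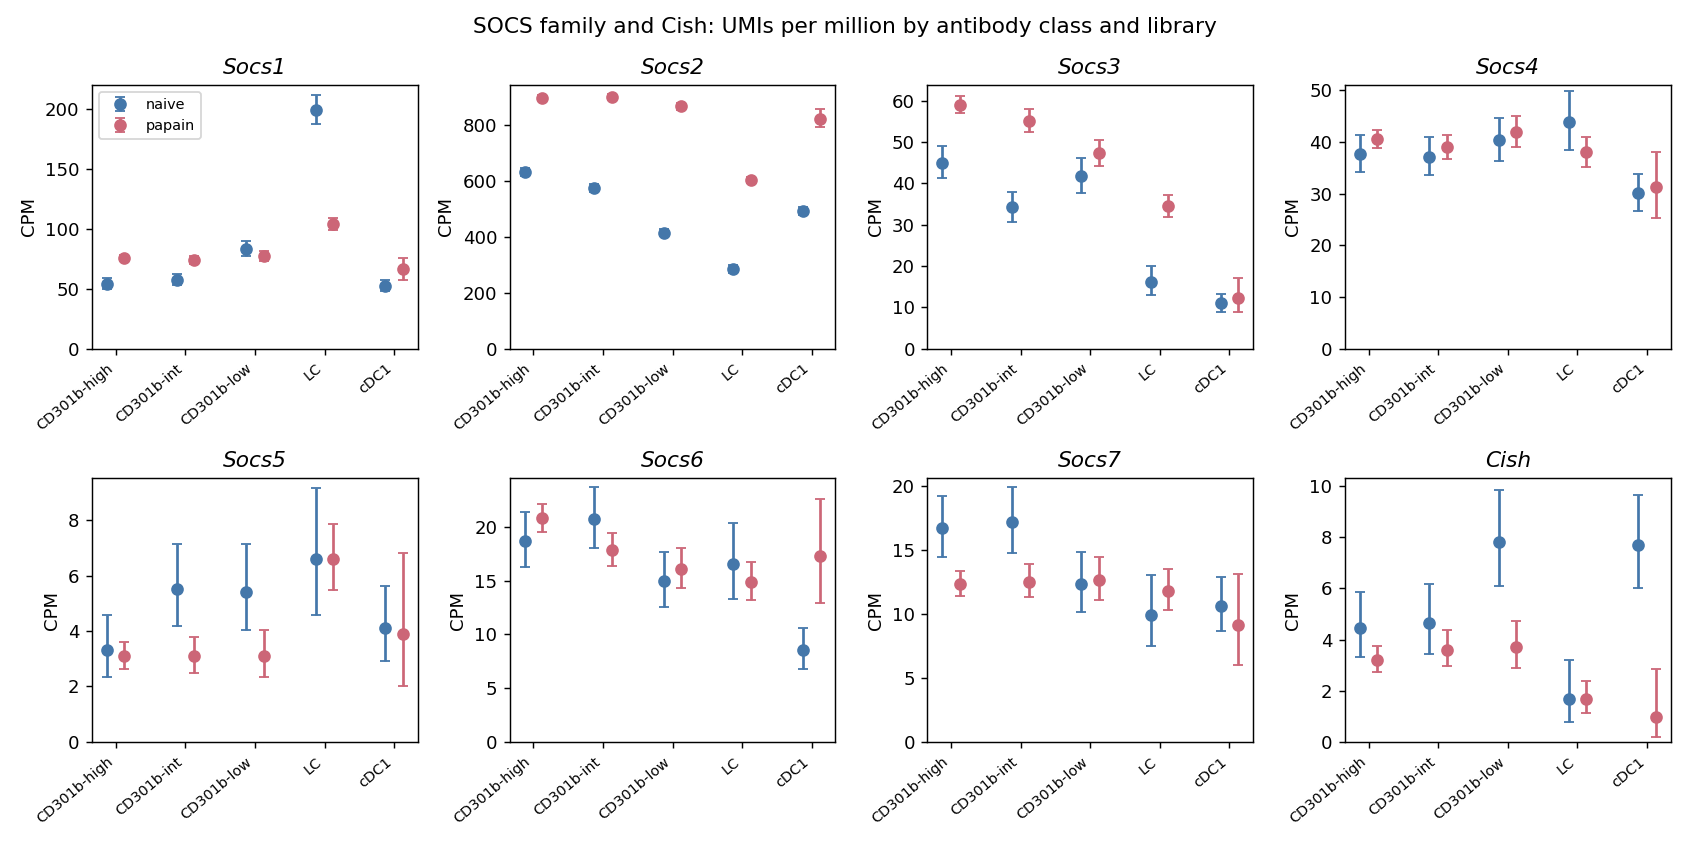
Level of each SOCS family gene in CPM (y axis, from 0) by antibody class (x axis) in the naive and papain libraries; points are sums over the cells of a class and bars are exact 95% Poisson intervals for counting error only. Socs2 is higher in papain in each class, Socs1 stands out in naive LCs at 199 CPM, and Socs3 is lower in cDC1s than in cDC2s of both libraries.

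Socs1 had its highest level in naive LCs. They held 199 CPM (188 to 212), against 54.3 CPM in CD301b-high, 57.7 CPM in CD301b-int and 83.3 CPM in CD301b-low cDC2s and 52.7 CPM in cDC1s of the same library. A UMI was present in 73.6% of naive LCs and, after thinning, in 63.8%, against 28.8% to 36.8% after thinning in the other naive classes. Papain LCs had 104 CPM (99.3 to 109), still above the other classes, which lay between 66.1 and 77.4 CPM with overlapping intervals. The gap between LCs and the rest was therefore smaller in the papain library.

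The papain over naive log2 ratio of Socs1 ran in both directions. It was -0.94 (-1.05 to -0.83) in LCs, 0.48 (0.35 to 0.60) in CD301b-high, 0.36 (0.22 to 0.49) in CD301b-int cDC2s and 0.33 (0.08 to 0.57) in cDC1s. In CD301b-low cDC2s it was -0.11 (-0.23 to 0.02), an interval that includes 0. Whether LCs differ from the other classes in this ratio was not tested, since each group is 1 library.

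Socs3 separated cDC1s from cDC2s in both libraries. Naive cDC1s had 11.0 CPM (8.95 to 13.3) and papain cDC1s 12.4 CPM (8.75 to 17.0), while cDC2s had 34.2 to 45.0 CPM in naive and 47.3 to 59.0 CPM in papain classes. LCs had 16.2 CPM (12.9 to 19.98) in the naive and 34.4 CPM (31.8 to 37.2) in the papain library. In both libraries cDC2s had the most, above LCs with no overlap. LCs lay above cDC1s in the papain library, while the intervals of naive LCs and naive cDC1s overlapped. Without cells holding a UMI of Cd3e or Trac these did not overlap. Naive LCs then had 15.7 CPM (12.4 to 19.5) and naive cDC1s 6.36 CPM (4.74 to 8.36). Among cDC2s, naive CD301b-low overlapped both CD301b-high and CD301b-int, and papain CD301b-high overlapped CD301b-int.

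The papain over naive log2 ratio of Socs3 was largest in LCs, at 1.09 (0.76 to 1.43). It was 0.39 (0.26 to 0.53) in CD301b-high, 0.69 (0.52 to 0.86) in CD301b-int and 0.18 (0.01 to 0.36) in CD301b-low cDC2s. In cDC1s it was 0.18 (-0.40 to 0.72), and past 1.5-fold once cells with a UMI of Cd3e or Trac were left out, as described below. The 12 immediate early and heat shock genes listed, a group that enzymatic digestion of tissue is known to raise, summed to between 4053 and 8219 CPM in naive classes and between 3278 and 5995 CPM in papain classes, lower with papain in each. Fos, Hspa1a and Hspa1b were at least 1.5-fold lower in 5 of 5 classes. Their part in the Socs3 levels was not tested.

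**Figure D2:**
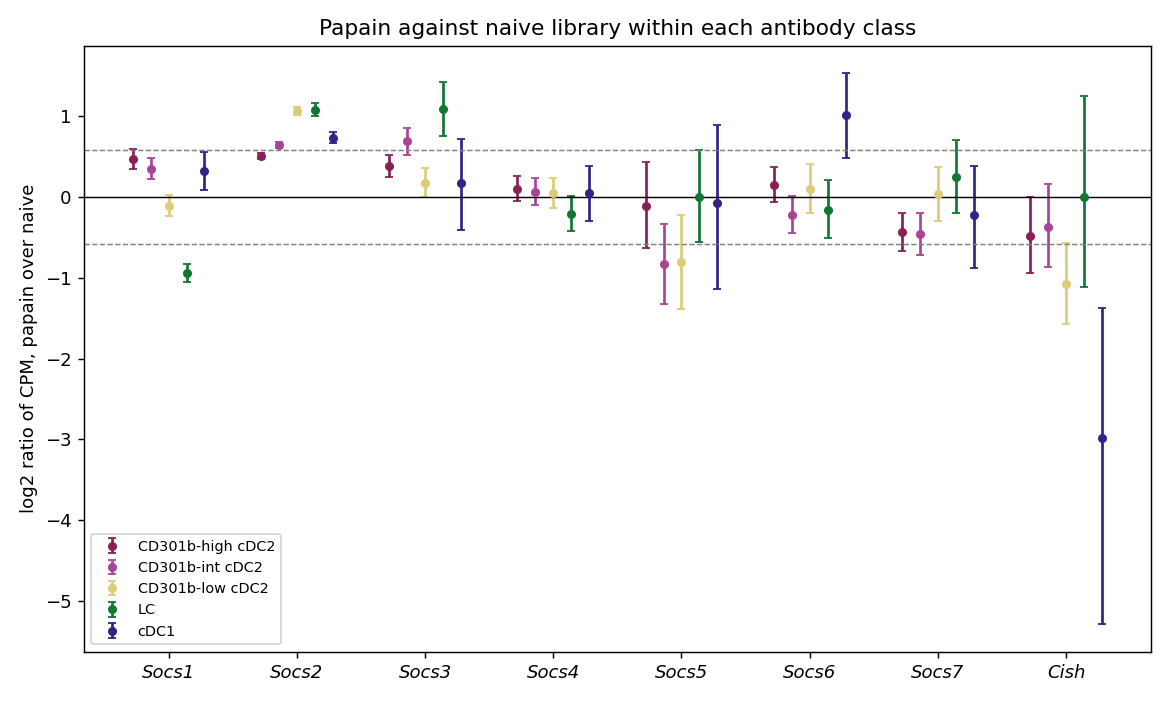
Log2 ratio of CPM, papain over naive (y axis), for each SOCS family gene (x axis) and antibody class (colours), with exact 95% intervals for counting error only; dashed lines mark 1.5-fold and the solid line marks no difference. Socs2 lies above 0 in each class, Socs1 lies at -0.94 in LCs and above 0 in CD301b-high and CD301b-int cDC2s and cDC1s, and the interval of Cish in cDC1s rests on 3 papain UMIs.

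Socs4 varied least. It had 30.1 to 43.8 CPM over the 10 groups, and the log2 ratio of papain over naive was between -0.21 and 0.11 with an interval that included 0 in each class. Socs6 had 8.53 CPM (6.78 to 10.6) in naive cDC1s and 14.9 to 20.8 CPM in the other 9 groups. Papain cDC1s had 17.2 CPM (12.9 to 22.6), a log2 ratio of 1.02 (0.49 to 1.53), from 81 naive and 53 papain UMIs. Naive cDC1s were therefore the group that stood apart in Socs6.

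Socs7 was lower in papain CD301b-high and CD301b-int cDC2s. It had 16.7 CPM in naive and 12.4 CPM in papain CD301b-high cDC2s, a log2 ratio of -0.43 (-0.67 to -0.19). In CD301b-int cDC2s it had 17.2 and 12.6 CPM, a log2 ratio of -0.46 (-0.72 to -0.19). Both differences were under 1.5-fold, and the intervals in the other 3 classes included 0.

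Socs5 stayed below 10 CPM in all 10 groups. LCs had 6.58 CPM in the naive and 6.59 CPM in the papain library, while cDC2s had 3.33 to 5.52 CPM in naive and 3.08 to 3.10 CPM in papain classes. In the papain library the log2 ratio of LCs over all cDC2s was 1.09 (0.78 to 1.40), from 121 and 303 UMIs.

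Cish was also below 10 CPM in all 10 groups, and a UMI was found in 0.851% to 6.40% of the cells of a class. It had 7.80 CPM (6.11 to 9.83) in naive and 3.71 CPM (2.88 to 4.71) in papain CD301b-low cDC2s, a log2 ratio of -1.07 (-1.57 to -0.57). In cDC1s it had 7.69 CPM (6.03 to 9.67) in the naive library from 73 UMIs and 0.976 CPM (0.201 to 2.85) in the papain library from 3 UMIs, a log2 ratio of -2.98 (-5.29 to -1.37). In CD301b-low cDC2s the T cell markers summed to 52.1 CPM in naive and 14.1 CPM in papain cells. The 38 naive CD301b-low cDC2s with a UMI of Cd3e or Trac had 20.9 CPM of Cish (11.2 to 35.8) and the other 620 had 6.85 CPM (5.22 to 8.84), against 3.64 CPM (2.79 to 4.65) in papain CD301b-low cDC2s without one. LCs had 1.69 CPM in both libraries. Over all cells of a class, naive CD301b-low cDC2s and naive cDC1s thus had the most Cish. For cDC1s this rank rested on cells with T cell transcripts, described next.

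Cells that carried T cell transcripts held most of the Cish of naive cDC1s. Of the 578 naive cDC1s, 78 held a UMI of Cd3e or Trac, and these had 65 of the 73 Cish UMIs, a level of 44.0 CPM (34.0 to 56.1). The other 500 naive cDC1s had 8 Cish UMIs, or 0.998 CPM (0.431 to 1.97). The 224 papain cDC1s without such a UMI had 1 Cish UMI, or 0.345 CPM (0.00873 to 1.92). Without these cells the cDC1 classes of both libraries were near 0 in Cish and their intervals overlapped.

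The same naive cDC1s differed in Socs3, Socs2 and Socs1. Those with a T cell UMI had 35.9 CPM of Socs3 (26.9 to 47.0) and 348 CPM of Socs2 (318 to 379). Those without had 6.36 CPM of Socs3 (4.74 to 8.36) and 519 CPM of Socs2 (504 to 535). Socs1 was at 74.5 CPM (61.3 to 89.8) in naive cDC1s with and 48.6 CPM (43.9 to 53.7) in those without such a UMI. In papain cDC1s without a T cell UMI Socs3 was at 13.1 CPM (9.27 to 18.0), so that the log2 ratio of papain over naive in cDC1s moved from 0.18 to 1.04 when cells with a T cell UMI were left out. The 5 T cell markers listed, none of them at 0, had sums between 10.7 and 192 CPM in naive classes, highest in cDC1s, and between 9.55 and 25.4 CPM in papain classes.

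Cish was also read in droplets that carried T cell transcripts and no antibody data. It had 13.4 CPM (9.07 to 19.0) in 237 such naive droplets and 4.81 CPM (2.20 to 9.13) in 241 papain droplets. Socs2 had 114 CPM and 81.2 CPM there, below all 10 DC groups. Of the Socs2 UMIs, 17.4% in the naive and 38.2% in the papain droplets came from 1 droplet. Socs1 had 47.4 and 49.7 CPM and Socs3 had 38.8 and 36.9 CPM, with overlapping intervals between libraries.

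**Figure D3:**
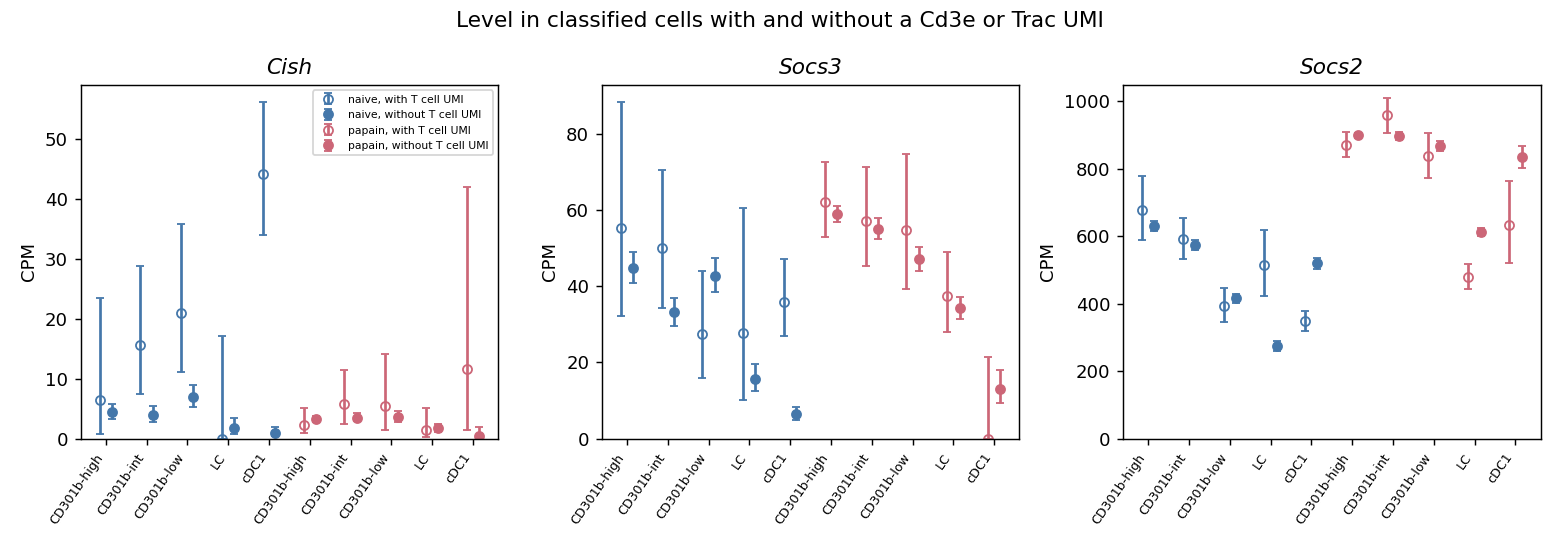
Level of Cish, Socs3 and Socs2 in CPM (y axes, from 0) in cells of each antibody class (x axis, naive then papain) with a Cd3e or Trac UMI (open points) and without (filled points); bars are exact 95% Poisson intervals. Cish in naive cDC1s is at 44.0 CPM in the 78 cells with such a UMI and at 0.998 CPM in the 500 cells without.

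Members were counted as different where the CPM of 2 groups differed at least 1.5-fold and the higher group had at least 10 CPM, a limit that Socs5 and Cish did not reach in any class, which left 6 members. Between papain and naive CD301b-high cDC2s no member was higher or lower, against 10.2% higher and 8.39% lower of all genes at this limit. Without naive mRNA cluster 5, chosen for its low Socs2 and described below, Socs3 was higher there. In CD301b-int cDC2s Socs2 and Socs3 were higher (2 of 6) against 10.7% of all genes, and none was lower against 10.5%. In this class Socs2 fell under the limit without naive mRNA cluster 5, Socs3 with 10 CPM added, and both at 2-fold. In CD301b-low cDC2s Socs2 was higher (1 of 6), the share over all genes being 11.0% higher and 14.2% lower. In LCs 2 members were higher (Socs2 and Socs3) and 1 lower (Socs1), beside 14.4% and 9.21% of all genes. In cDC1s Socs2 and Socs6 were higher (2 of 6) and none was lower, beside 10.3% and 12.6%. Without cells holding a T cell UMI, Socs3 joined them (3 of 6). Socs6 was lost with 10 CPM added or a minimum of 20 CPM, and at 2-fold Socs2 was lost in cDC1s and Socs1 in LCs. The median log2 ratio of the 6 members was between 0.05 and 0.27 over the classes, and that of all genes at the limit was between 0.01 and 0.09.

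CD301b-high cDC2s had more Socs2 and less Socs1 than CD301b-low cDC2s in the naive library. The log2 ratio of CD301b-high over CD301b-low cDC2s was 0.61 (0.55 to 0.66) for Socs2 and -0.62 (-0.77 to -0.46) for Socs1. These were 1 member higher and 1 lower of 6, against 5.02% and 9.53% of all genes. Both ratios lay close to the 1.5-fold limit. That of Socs1 was under it relative to the median of all genes (-0.55) and with 10 CPM added (-0.54). That of Socs2 was under it without cells holding a Cd79a or Cd79b UMI (0.54), after thinning (0.55) and with the mean of CPM over cells (0.54). Thinning left out the shallower cells, 55 of 707 CD301b-high and 87 of 658 CD301b-low cDC2s of the naive library. Leaving out naive mRNA cluster 5, chosen for its low Socs2 and described below, lowered the Socs2 ratio further. The 5 B cell markers listed summed to 12.9 CPM in naive CD301b-high and 63.3 CPM in naive CD301b-low cDC2s, and the T cell markers to 10.7 and 52.1 CPM. The Socs2 ratio was 0.60 once cells with a T cell UMI were left out. In the papain library the ratios were 0.05 (0.02 to 0.08) for Socs2 and -0.03 (-0.12 to 0.06) for Socs1. No member passed 1.5-fold there, against 4.28% higher and 3.99% lower of all genes, and Socs3 and Socs6 had log2 ratios of 0.32 (0.21 to 0.43) and 0.37 (0.18 to 0.56).

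Since the classes are cuts of the CD301b antibody value, ranking cDC2s by that value shows the same cells in finer steps and is no independent support. Cells of each library were divided into 10 bins of equal size. From the lowest to the highest bin of naive cDC2s, Socs2 went from 304 CPM (285 to 324) to 702 CPM (674 to 732), and Socs1 from 81.7 CPM (71.9 to 92.6) to 49.5 CPM (42.1 to 57.9). Over the bins of papain cDC2s Socs2 lay between 829 and 924 CPM and Socs1 between 71.8 and 83.3 CPM. Socs3 went from 58.9 CPM in the lowest naive bin to 22.8 CPM in bin 3 and 45.2 CPM in the highest, without a steady direction. Cish was at 12.6 CPM (8.90 to 17.3) in the lowest naive bin and at 3.22 to 6.55 CPM in the other 9. Cells with a Cd3e or Trac UMI were not left out of the bins. Naive mRNA cluster 7, described below, held 34 Cish UMIs in 50 cells, of which 68.0% were CD301b-low and 56.0% had such a UMI. Its part in the lowest bin was not tested.

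**Figure D4:**
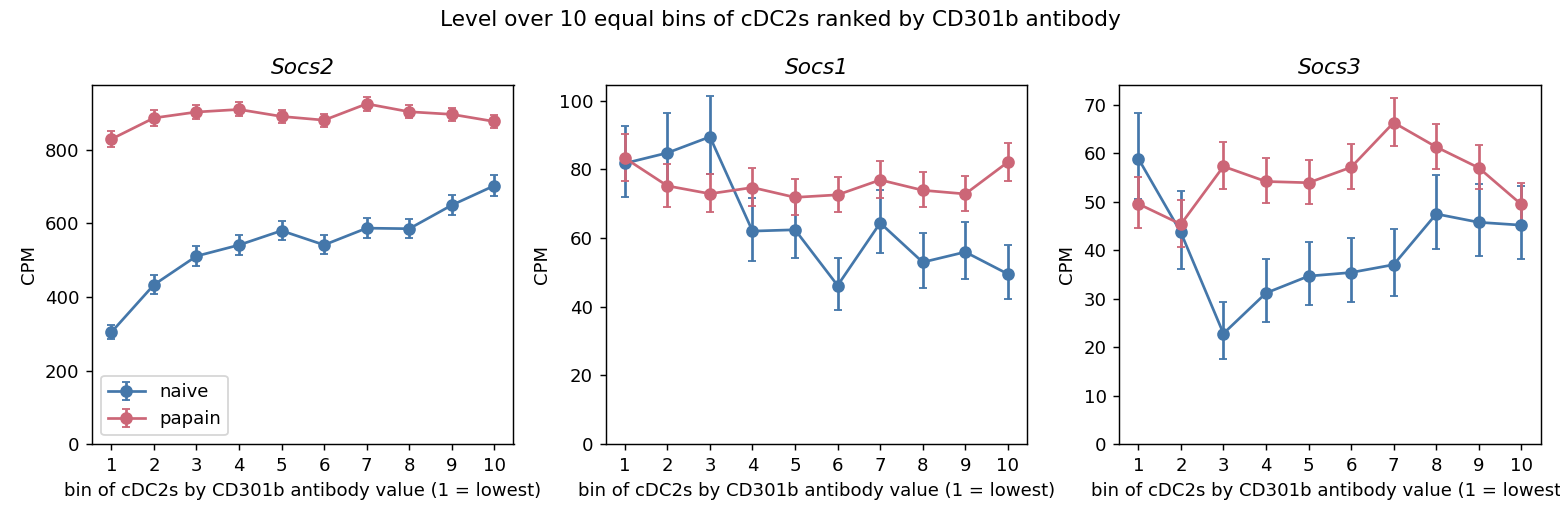
Level of Socs2, Socs1 and Socs3 in CPM (y axes, from 0) over 10 equal bins of cDC2s ranked by CD301b antibody value (x axes, 1 is lowest) in each library, with exact 95% Poisson intervals. Socs2 climbs from 304 to 702 CPM over the naive bins and stays between 829 and 924 CPM over the papain bins.

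The authors' mRNA clusters of cDC2s, which were made from expression and are described without a test, set apart one group of naive cells with little Socs2. Naive cluster 5 had 106 CPM (97.5 to 116), while the other 6 naive clusters had 365 to 888 CPM. Of its 246 cells 58.1% were CD301b-low, and it made up 21.7% of naive CD301b-low, 9.71% of CD301b-int and 5.52% of CD301b-high cDC2s. The 4 monocyte or macrophage markers listed (Lyz2, Ly6c2, Adgre1 and Csf1r) summed to 3952 CPM in this cluster and to 14.8 to 182 CPM in the other naive clusters. It also had little Socs1, at 32.1 CPM (27.3 to 37.6), and the highest naive Socs3, at 64.0 CPM (57.1 to 71.5).

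Leaving out naive cluster 5 kept the direction of the Socs2 differences. That they became smaller follows from the choice and is no separate result. The cluster was chosen for its low Socs2 and held more CD301b-low than CD301b-high cells, and no papain cluster was left out. Naive CD301b-low cDC2s then had 533 CPM of Socs2 and the log2 ratio of CD301b-high over CD301b-low was 0.34 in place of 0.61. The papain over naive log2 ratio of Socs2 became 0.41 in CD301b-high, 0.47 in CD301b-int and 0.70 in CD301b-low cDC2s. For Socs1 the naive CD301b-high over CD301b-low ratio became -0.80, and for Socs3 the papain over naive ratio in CD301b-high cDC2s became 0.65. Both shifts were likewise set by the low Socs1 and high Socs3 of the cells left out. The monocyte or macrophage markers had sums between 585 and 710.3 CPM in naive cDC2 classes and between 20.2 and 96.3 CPM in papain cDC2 classes, with none at 0.

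Within naive clusters 1 to 3 CD301b-high and CD301b-low cells were closer in Socs2 than over the whole classes. In naive cluster 1 Socs2 had 753 CPM (731 to 777) in CD301b-high and 659 CPM (617 to 704) in CD301b-low cells, and in naive cluster 2 it had 599 and 555 CPM with overlapping intervals. In naive cluster 3 it was lower in CD301b-high, at 523 CPM (483 to 566), than in CD301b-low cells, at 639 CPM (597 to 684). Socs1 in these 3 clusters had 49.5, 59.6 and 80.0 CPM in CD301b-high and 67.8, 65.1 and 94.8 CPM in CD301b-low cells, with overlapping intervals in each. Naive cluster 4, of which 64.5% of cells were CD301b-low, held the most Socs1, at 122 CPM (111 to 133). There CD301b-int and CD301b-low cells did not overlap, with 94.98 CPM (76.6 to 116) and 140.3 CPM (126 to 156) of Socs1 and 547 CPM (502 to 596) and 439 CPM (413 to 467) of Socs2.

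In the papain library Socs2 was at 791 to 1018 CPM in 8 clusters and at 420.04 CPM (396 to 445) in cluster 9, of which 69.0% of cells were CD301b-low. Socs3 spread furthest among the papain clusters, from 12.5 CPM (9.65 to 16.0) in cluster 6 to 94.1 CPM (88.9 to 99.6) in cluster 3. Cluster 6 also had the least Socs1, at 31.5 CPM, and the lowest sum of immediate early and heat shock genes, at 1705 CPM against 3623 to 6427 CPM in the other papain clusters. In the naive library Socs3 was lowest in cluster 3, at 6.80 CPM (4.55 to 9.76), where that sum was 7830 CPM. The part of these genes in the Socs3 levels was not tested.

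Cish was highest in naive cluster 7, at 37.5 CPM (25.9 to 52.3) from 34 UMIs in 50 cells. Of these cells 56.0% held a Cd3e or Trac UMI and the T cell markers summed to 799 CPM. All other clusters of both libraries had 1.44 to 6.96 CPM of Cish. Papain cluster 9, with the highest sum of T cell markers among papain clusters at 94.7 CPM, had 3.70 CPM of Cish (1.77 to 6.81), within the range of the other papain clusters.

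**Figure D5:**
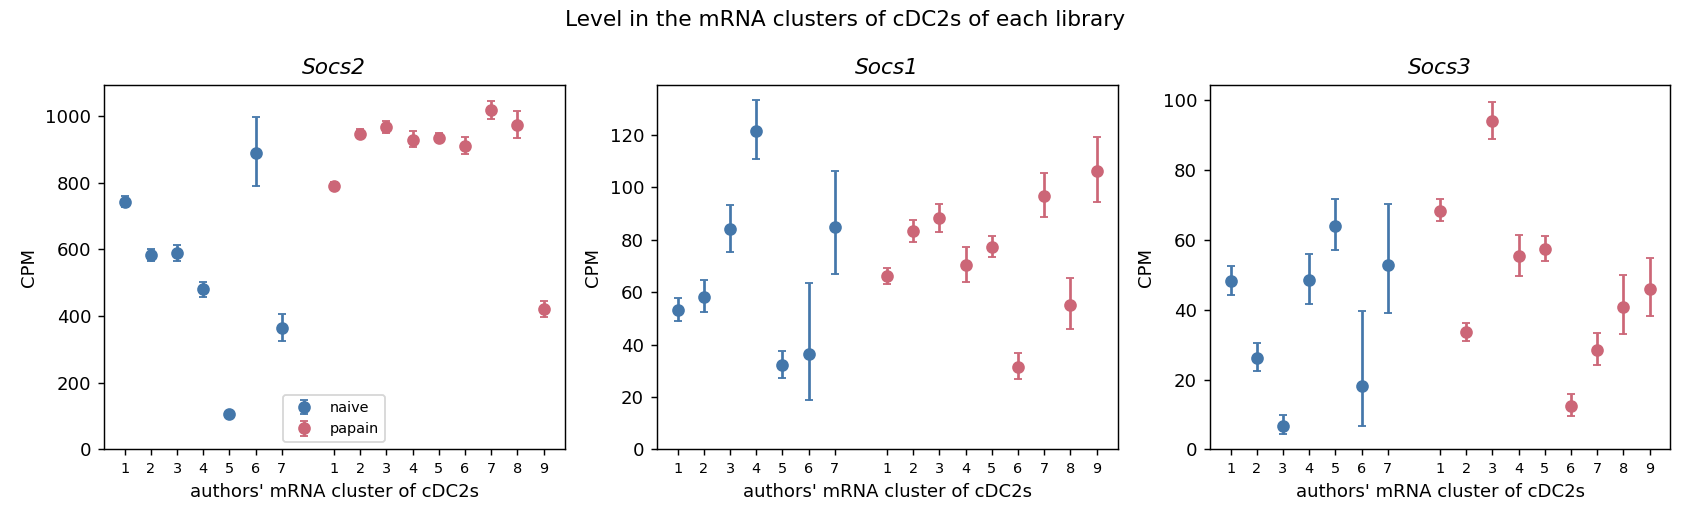
Level of Socs2, Socs1 and Socs3 in CPM (y axes, from 0) in each of the authors' mRNA clusters of cDC2s with at least 50 cells (x axes, naive then papain), with exact 95% Poisson intervals. Socs2 is at 106 CPM in naive cluster 5 and 420.04 CPM in papain cluster 9, below the other clusters of each library.

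LCs had more Socs1 and less Socs2 and Socs3 than cDC2s. In the naive library the log2 ratio of LCs over all cDC2s was 1.64 (1.53 to 1.75) for Socs1, -0.95 (-1.03 to -0.87) for Socs2, -1.32 (-1.65 to -1.0) for Socs3 and -0.64 (-1.08 to -0.23) for Socs7. That made 1 member higher and 3 lower of 6, against 11.6% and 13.8% of all genes. Socs7 was lost with 10 CPM added or a minimum of 20 CPM, and at 2-fold Socs3 alone was lower. In the papain library the ratios were 0.46 (0.39 to 0.54) for Socs1, -0.57 (-0.60 to -0.54) for Socs2 and -0.69 (-0.81 to -0.57) for Socs3. Socs3 was then the 1 member lower, none was higher, and 6.80% of all genes were higher and 6.02% lower. Leaving out the deepest 5% of cells, the mean of CPM over cells and thinning each gave Socs1 as higher and Socs2 and Socs3 as lower, while no member was lower with 10 CPM added or at 2-fold.

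cDC1s were set apart from cDC2s by Socs3. The log2 ratio of cDC1s over all cDC2s was -1.88 (-2.19 to -1.59) with naive cells and -2.17 (-2.67 to -1.71) with papain cells. Without cells holding a T cell UMI the ratios were -2.66 and -2.08. The immediate early and heat shock genes were also lower in cDC1s, with sums of 4053 against 7336 CPM (9 of 12 genes lower, 1 higher) for naive and 3278 against 4619 CPM (3 of 12 lower) for papain cells, and their part in the Socs3 difference was not tested. Socs6 was lower in naive cDC1s, at -1.10 (-1.45 to -0.76), and not separated in the papain library, at -0.14 (-0.56 to 0.25). Members lower numbered 2 of 6 in the naive and 1 of 6 in the papain library and none was higher, against 17.2% lower and 11.9% higher, and 16.7% lower and 9.66% higher, of all genes.

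Other genes of the pathway were taken from lists chosen by function, with earlier results of these data known. Those named are the ones at least 1.5-fold different between papain and naive in most classes, at most 4 a list. Of all genes at the limit, 10.2% to 14.4% were higher and 8.39% to 14.2% lower by class, beside which the counts below stand. None of the 3 Janus kinases at the limit, of the 4 listed, passed 1.5-fold in any class. Of the 7 STATs, 1 to 4 were higher by class and none lower. Stat4, which transmits interleukin-12 signals, was higher in 5 of 5 classes, from 29.3 to 74.9 CPM in LCs (log2 ratio 1.35, 1.11 to 1.60) and from 43.0 to 70.1 CPM in CD301b-high cDC2s (0.71, 0.57 to 0.84).

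Of the cytokine receptor chains listed, 28 were found in the tables and 20 or 21 reached the limit in a class, where 1 to 4 were higher and 1 to 4 lower. Il2ra, the interleukin-2 receptor alpha chain, was higher in 5 of 5 classes, from 22.4 to 99.0 CPM in LCs (log2 ratio 2.14, 1.88 to 2.42) and from 62.4 to 149 CPM in CD301b-low cDC2s (1.26, 1.13 to 1.39). Il6ra, the interleukin-6 receptor, was lower in the 3 cDC2 classes, at -1.05, -1.34 and -1.50 on the log2 scale in CD301b-high, CD301b-int and CD301b-low. The monocyte or macrophage markers fell in the same classes, from sums of 585 to 710 CPM in naive to 20.2 to 96.3 CPM in papain cells. Their part in Il6ra was not tested. Of the 11 ligands found in the tables, 3 to 6 reached the limit in a class, where 0 to 2 were higher and 0 to 2 lower. Among them Il12b was lower in 4 of 5 classes and Il6 in 3, and Il15 was higher in 3.

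Of the 6 listed genes of ubiquitin ligase subunits found in the tables, 1 to 3 were higher in papain by class and none lower. Elob, which encodes elongin B, a partner of the elongin C that the SOCS box binds, was higher in 5 of 5 classes, with log2 ratios of 0.61 in cDC1s to 1.10 in CD301b-high cDC2s. Rbx1, a ring subunit of ubiquitin ligases, was higher in 4 of 5 classes. Among 10 other inhibitors of the pathway at the limit, 0 or 1 were higher and 0 or 1 lower by class, Ptprc being lower in CD301b-low cDC2s and Sh2b3 in LCs, both named after their values were seen. Usp18, an inhibitor of interferon receptor signalling, was higher in 4 of 5 classes, at up to 1.09 on the log2 scale in cDC1s, and 0.37 in CD301b-high cDC2s.

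STAT-responsive genes other than the members ran in both directions. Of 13 found in the tables, 10 to 13 reached the limit in a class, and 2 to 5 were higher and 1 to 4 lower by class. Bcl2l1, a survival gene, was higher in cDC2s and LCs, from 50.8 to 124 CPM in CD301b-high cDC2s (log2 ratio 1.28, 1.16 to 1.41), and was at 80.4 and 82.7 CPM in cDC1s. Ccl17 and Gbp2 were higher in 4 of 5 classes and Retnla lower in 4.

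The genes whose level was most like that of a member over the 10 groups were named by Pearson's r of log2(CPM + 1) among 6049 genes. Groups of 1 library share its preparation, and r is a description over 10 points. For Socs2 they were Rgs10 (r = 0.985), Poglut1 (0.976) and Gm8399 (0.975). For Socs1 they were Fra10ac1 (0.946), Kctd13 (0.945) and Zfp397 (0.944), and for Socs3 Rps6-ps3 (0.991), Eef1a1 (0.980) and Gm37121 (0.978). Gprc5a (0.949), Dusp2 (0.946) and Srp54c (0.956) came first for Socs4, Socs6 and Socs7.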

How the data were processed

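Reads were processed by the authors with Cell Ranger (version 3.0.1) on mm10 and with Partek, per the labels. The deposited expression tables give log2 values (log2 of CPM + 1) for 18049 genes in each cell. Values were turned back into whole UMIs, of which 100% of those up to 50 UMIs lay within 0.02 of a whole number. The deposited counts (genes and antibody counts per cell), percent (mitochondrial share of summed log2 values) and score (sum of log2 values) columns entered no result. Antibody values were deposited as natural log values and served only to rank cells. Classes and mRNA clusters are the authors'.

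UMIs were summed per class and library (53095046 UMIs in 3471 naive cells and 122133401 in 7596 papain cells). Of these, 3042 and 7306 cells had an antibody class. CPM carry exact Poisson intervals, shares Clopper-Pearson intervals and ratios exact conditional binomial intervals (95%, scipy 1.17.1), all for counting error only. Ratio and interval code was tested on simulated data. A gene was counted as different at 1.5-fold where the higher of both groups reached 10 CPM, and a group with no UMI was set to 3 counts. No test was possible with 1 library a group. No doublet caller was run. The rule for named genes was all 8 members and up to 4 genes a list that differed in most classes. Of the genes most like a member, 3 were named for each of Socs1, Socs2 and Socs3. The first alone was named for Socs4, Socs6 and Socs7. Ptprc and Sh2b3 were named outside this rule. The members and lists were chosen with earlier results of these data known.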

Additional observations from a re-analysis of the deposited data

Results flagged for a closer look

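The papain over naive ratio of Socs1 had intervals on opposite sides of 0 in different classes: -0.94 on the log2 scale in LCs against 0.48 in CD301b-high cDC2s, 0.36 in CD301b-int cDC2s and 0.33 in cDC1s. The difference between classes was not tested. Socs1 in LCs was -0.76 after thinning. Thinning left out the shallower cells, 127 of 440 naive and 110 of 881 papain LCs, and their part in this shift was not tested.

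Cish in cDC1s over all cDC2s was 0.48 on the log2 scale for naive and -1.81 for papain cells, with intervals on opposite sides of 0, and the difference was not tested. Once cells with UMIs of Cd3e or Trac were left out, the naive ratio was -2.31 and the papain ratio -3.30, the same direction in both libraries. These ratios rest on 8 naive and 1 papain cDC1 UMIs of Cish.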

How the results depend on the processing

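Of 286 alternative counts of members at least 1.5-fold higher or lower, 249 were within 1.5 times the main count and 37 moved, and of 880 alternative log2 ratios 55 moved and 825 did not, none changing the sign of a member past the limit. Of 560 alternative levels 36 moved. Leaving out naive mRNA cluster 5 was chosen after seeing the data. It gave 1 member higher in papain CD301b-high cDC2s (Socs3), 1 in papain CD301b-int cDC2s (Socs3) and 0 higher in naive CD301b-high over CD301b-low cDC2s, where Socs2 had passed. The last count was also 0 without cells holding a Cd79a or Cd79b UMI, with the mean of CPM over cells, after thinning and at 2-fold. Thinning here also left out the shallower cells. With 10 CPM added, 1 member was higher in papain CD301b-int cDC2s and 1 in papain cDC1s (Socs2 in both), 0 were lower in naive CD301b-high over CD301b-low cDC2s, and 0 were lower in papain LCs over cDC2s. With no minimum level Socs5 and Cish entered: 1 lower in papain CD301b-int cDC2s, 2 lower in papain CD301b-low cDC2s, 1 lower in papain cDC1s, 3 lower in naive CD301b-high over CD301b-low cDC2s, 1 higher and 2 lower in papain LCs over cDC2s, and 2 lower in papain cDC1s over cDC2s. Cish then also entered as lower in naive LCs over cDC2s, at a log2 ratio of -1.70 (-2.86 to -0.75). At 2-fold, 0 members were higher in papain CD301b-int cDC2s, 0 lower in papain LCs, 1 higher in papain cDC1s (Socs6), 0 lower in naive CD301b-high over CD301b-low cDC2s, 1 lower in naive LCs over cDC2s (Socs3) and 0 lower in papain LCs over cDC2s. A minimum of 20 CPM left 1 higher in papain cDC1s and 1 lower in naive cDC1s over cDC2s. For papain LCs over cDC2s, leaving out the deepest 5% of cells, the mean over cells and thinning each gave 1 higher (Socs1) and 2 lower (Socs2 and Socs3), and ratios taken relative to the median of all genes gave 2 lower there and 0 lower in naive CD301b-high over CD301b-low cDC2s. For papain cDC1s over cDC2s, 2 were lower (Socs3 and Socs7) without cells holding a T cell UMI, with the mean over cells and after thinning. Causes were not tested. The median log2 ratio of all genes was between -0.12 and 0.09 over the comparisons; the largest shift, -0.12, was in papain cDC1s over cDC2s.

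No paired analysis was possible because each group is 1 library. Depth limits Socs5 and Cish most: 1 UMI was worth 0.0198 to 0.325 CPM by class, and papain cDC1s, with 235 cells, are the thinnest group. Of 160 alternative shares of cells with a UMI, 146 moved, so shares were set beside CPM. Leaving out a replicate was not possible.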
